A study of Mus musculus with 15 samples.

Results

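The miRNAs described here are miR-451a, both arms of miR-144 and both arms of miR-486a and miR-486b, the microRNAs (miRNAs) for which red blood cells are best known. They were taken as every row of the deposited miRNA count table that carries 1 of 7 listed names: mmu-miR-451a, mmu-miR-144-3p, mmu-miR-144-5p, mmu-miR-486a-5p, mmu-miR-486b-5p, mmu-miR-486a-3p and mmu-miR-486b-3p. That gave 7 of the 1205 rows, since some rows hold reads of miR-486a and miR-486b together, and 6 of the 7 passed the abundance filter, as did 426 rows of the whole table. Extracellular small RNA was sequenced from platelet-free plasma of male wild-type C57BL/6J mice, 24 h after surgery. CLP, cecal ligation and puncture, opens the gut into the abdomen and is used as a model of polymicrobial sepsis (9 libraries), and the comparison group had a sham operation (6 libraries). No label states that the numbered libraries come from different mice, so the spread behind every p-value is that between these libraries and may be technical.

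miR-451a and miR-144 are cut from a shared primary transcript that the erythroid factor GATA1 switches on, and both accumulate as red cells mature. miR-451a is unusual in that its short hairpin bypasses Dicer and is sliced by Ago2, after which the 3′ end is trimmed. miR-144-3p is the guide arm of an ordinary Dicer-cut hairpin and is known as a repressor of the antioxidant factor Nrf2, while miR-451a represses the adaptor 14-3-3ζ and thereby protects red cells from oxidative damage. miR-486-5p is made from within Ank1, the gene of the red cell membrane protein ankyrin 1, and is also abundant in striated muscle. Because red cells hold so much of these miRNAs, the ratio of miR-451a to miR-23a-3p, a miRNA that red cells hardly contain, is widely used to judge haemolysis in plasma.

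The sequences of miR-451a and miR-144 are shown because the results turn on the contrast between these neighbours. They are RefSeq sequences on GRCm38.p6, the same coordinates as mm10, and 3 of the 7 listed names had a mature sequence there. The capitals mark the seed, bases 2 to 8, which pairs with target mRNAs.
miR-451a: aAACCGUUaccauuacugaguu
miR-144-3p: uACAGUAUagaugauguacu
miR-144-5p: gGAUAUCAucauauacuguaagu
The 3 seeds differ. No other mature mouse miRNA in the RefSeq table shares bases 2 to 7 with miR-451a or miR-144-5p, whereas miR-101a-3p shares bases 2 to 7, in capitals here, with miR-144-3p.
miR-101a-3p: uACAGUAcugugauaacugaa
The miR-101a-3p level was 308 ± 115 CPM in CLP and 282 ± 30.4 CPM in sham (SD, n = 9 and 6; log2 fold change 0.13 ± 0.21, SE; edgeR adjusted p = 0.646).

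The hairpins show how differently the neighbours are built. Capitals mark the mature miRNAs, and both hairpins are read from the plus strand of chromosome 11.
Mir144 hairpin: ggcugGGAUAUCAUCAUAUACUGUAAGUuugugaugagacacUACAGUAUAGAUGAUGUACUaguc
Mir451a hairpin: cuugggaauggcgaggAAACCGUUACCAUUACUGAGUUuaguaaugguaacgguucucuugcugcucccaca
The Mir144 hairpin, at chr11:78073005-78073070, lies 99 bases before the Mir451a hairpin, at chr11:78073170-78073241, and neither overlaps another gene on its strand in GENCODE M21. In the structure predicted by RNAfold, miR-451a fills bases 17 to 38 of its 72-base hairpin, and its last 4 bases form the terminal loop, from base 35 to 38. The arms of miR-144 flank their loop without entering it (bases 6 to 28 and 43 to 62, loop at 31 to 36). Mir451b is annotated on the opposite strand over the same interval as Mir451a. Mir486 (miR-486a), at chr8:23142555-23142682 on the plus strand, and Mir3107 (miR-486b), at chr8:23142573-23142662 on the minus strand, are likewise antisense to each other, inside an intron of Ank1.

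Values are counts of reads per mature miRNA, given as CPM (counts per 1000000, with library sizes scaled by TMM). Library totals ran from 6181056 to 13576482 counts in CLP and from 5274676 to 10702028 in sham, so counting error was small against the spread between libraries for all but the scarcest rows. CLP 5 held the highest CLP value of 6 of the 7 rows. Sham 1, 2 and 3 lay above sham 4, 5 and 6 in miR-451a, miR-144-3p, miR-144-5p and the 5p arm of miR-486, and no label separates these libraries. Adapter ligation favours some end sequences, so levels of different miRNAs are compared as read counts only, and counts are relative to the other small RNA of a library.

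The 5p arm of miR-486 supplied nearly all reads of these rows, between 90.0% and 96.9% of them in CLP and between 94.7% and 95.6% in sham. Together the 7 rows took 15.5% ± 8.55 of the counts in CLP (SD, n = 9) and 29.8% ± 13.5 in sham (n = 6). The share ran from 8.45% in CLP 4 (95% Wilson interval 8.43 to 8.47) to 35.8% in CLP 5 (35.79 to 35.85), and from 17.6% in sham 5 (17.53 to 17.58) to 48.5% in sham 2 (48.50 to 48.57). The intervals cover counting error only. In all 6 sham libraries miR-486a/b-5p ranked first of all miRNAs, and in CLP it ranked from 1 to 4, first only in CLP 5 and CLP 6. These are shares of a library, so a rise of other small RNA cannot be told from a loss of these miRNAs. In bulk plasma, fewer cells shedding a miRNA and less of it shed per cell cannot be told apart either.

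In CLP the order of mean levels was miR-486a/b-5p, miR-144-3p, miR-451a, the joint miR-486a/b-3p row, miR-144-5p, the miR-486b-3p row and the miR-486a-3p row. In sham miR-451a stood above miR-144-3p, and the rest kept that order. The sham means of miR-451a and miR-144-3p, 7166 and 6171 CPM, lay well within their SDs of 3343 and 3612. The CLP means were 2960 and 5748 CPM with SDs of 1540 and 3305, but within libraries miR-451a was the lower of the pair in 9 of 9.

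**Figure D1:**
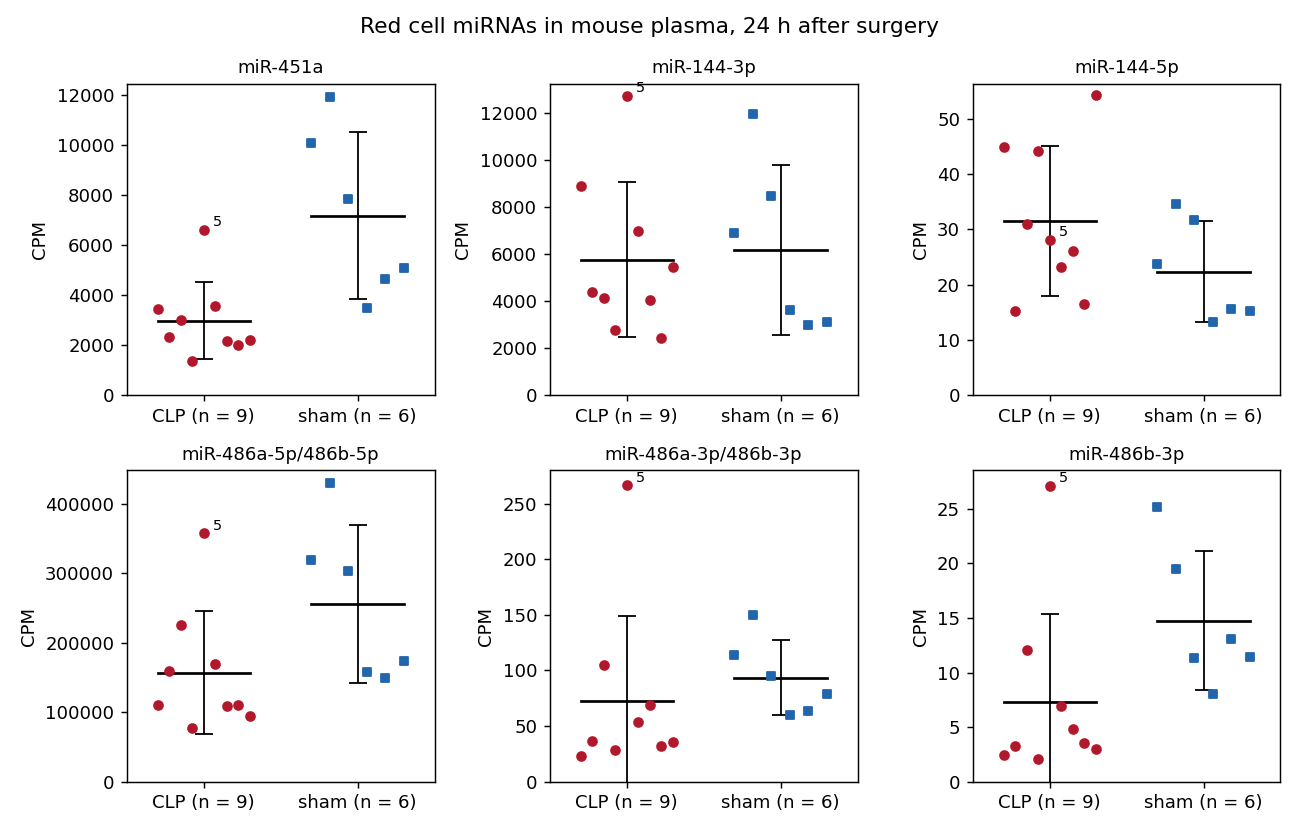
CPM (TMM-scaled) of 6 rows, 1 point per library, in CLP (red circles, n = 9) and sham (blue squares, n = 6); the long line is the mean and the bar 1 SD, cut at 0, and CLP 5 is marked. In miR-451a 7 CLP libraries lie below every sham library, whereas in miR-144-3p the groups overlap.

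miR-451a fell in CLP while its neighbour miR-144-3p did not pass the test. Of the 6 rows tested, miR-451a alone passed at an adjusted p under 0.05 by edgeR's quasi-likelihood test, and it was lower. Over the whole table, 47.2% of tested miRNAs passed and 21.8% passed as lower, so 1 of 6 is no more than the background share. Over the same table, 19.7% of miRNAs had CLP and sham ranges that did not overlap, 11.3% with CLP lower and 8.45% with CLP higher, and this held for 0 of the 6 tested rows.

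miR-451a was at 3416, 2323, 3006, 1368, 6615, 3542, 2168, 2003 and 2204 CPM in CLP 1 to 9, against 10058, 11921, 7841, 3482, 4627 and 5066 CPM in sham 1 to 6. CLP 5 was above 3 of the sham libraries and CLP 6 just above the lowest, and the other 7 CLP libraries were below them all. The log2 fold change was -1.28 ± 0.32 (SE; edgeR adjusted p = 0.00313; 95% interval -1.95 to -0.60), and without CLP 5 it was -1.61 (0.000128). It ranked 56th from the lowest of the 426 changes.

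miR-144-3p was at 8874, 4397, 4142, 2756, 12723, 6951, 4053, 2405 and 5434 CPM in CLP 1 to 9, against 6900, 11949, 8465, 3618, 2970 and 3121 CPM in sham 1 to 6. Its groups overlapped, with 6 of 9 CLP libraries inside the sham range, 2 below it and CLP 5 above it. The log2 fold change was -0.10 ± 0.38 (SE; edgeR adjusted p = 0.838), with a 95% interval of -0.91 to 0.70. On leaving out 1 library the sign turned only without sham 2, to 0.17, and the lowest value was -0.43, without CLP 5. With the trend with GC content between libraries removed it was -0.64 (edgeR adjusted p = 0.171), and without CLP 1 and CLP 5 it was -0.54 (0.214).

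The scarce partner arm, miR-144-5p, was at 45.0, 15.1, 30.9, 44.1, 28.1, 23.2, 26.0, 16.5 and 54.4 CPM in CLP 1 to 9, against 23.8, 34.6, 31.8, 13.2, 15.5 and 15.2 CPM in sham 1 to 6. CLP 1, 4 and 9 were above every sham library and the other 6 CLP libraries inside the sham range. The log2 fold change of 0.49 ± 0.31 did not pass (SE; edgeR adjusted p = 0.191), and it was -0.11 once the trend with GC content between libraries was removed. This arm rests on 83 to 354 counts per library in CLP and 79 to 270 in sham.

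miR-486a/b-5p was at 110927, 159466, 225532, 77286, 358097, 169000, 108627, 111020 and 95240 CPM in CLP 1 to 9, against 318862, 430537, 303512, 157637, 149653 and 174516 CPM in sham 1 to 6. CLP 1, 4, 7, 8 and 9 were below every sham library and the other 4 inside the sham range. The log2 fold change of -0.70 ± 0.33 did not pass (SE; edgeR adjusted p = 0.0867). It did pass without CLP 5, at -1.05 (0.00372), without sham 4, sham 6 or CLP 3, and when scaled by library size alone, at -0.95 (0.0200). That scaling moved the median log2 fold change of all tested miRNAs as well, from 0.11 with TMM to -0.12.

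Muscle, the other tissue rich in miR-486, was represented by 7 miRNAs, all detected. Their summed level was 5022 to 40714 CPM in CLP (median 21409) and 482 to 7253 CPM in sham (median 1345), and 4 of the 7 rose by edgeR's test, where 25.4% of all tested miRNAs did. In CLP most of that sum was miR-1a-3p, at 18065 ± 10219 CPM in CLP and 1081 ± 1370 CPM in sham (SD, n = 9 and 6). In sham miR-133a-3p was near it, at 882 ± 837 CPM, against 1283 ± 611 CPM in CLP (log2 fold change 0.54 ± 0.50, SE, edgeR adjusted p = 0.400). For miR-133b-3p the log2 fold change was -0.60 ± 0.51 (SE, edgeR adjusted p = 0.348). Besides miR-1a-3p, those that rose were miR-206-3p (2.95 ± 0.50), miR-208b-3p (4.48 ± 0.93) and miR-499-5p (1.94 ± 0.67). These are log2 fold changes with SE (edgeR adjusted p = 0.000146, 0.000683 and 0.0244). The part of muscle in the miR-486 level was not tested.

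The 3p arms of miR-486 were read far less. The row of reads that fit both miR-486a-3p and miR-486b-3p was at 23.1 to 266 CPM in CLP (median 36.3) and 60.2 to 149 CPM in sham (median 87.1). Of the CLP libraries 6 were below every sham library and CLP 5, at 266 CPM, was above them all. The log2 fold change was -0.37 ± 0.48 (SE; edgeR adjusted p = 0.542), and -1.06 without CLP 5 (0.00865).

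The row of reads assigned to miR-486b-3p alone was at 2.10 to 27.1 CPM in CLP (median 3.58) and 8.03 to 25.2 CPM in sham (median 12.2), with 7 CLP libraries below every sham library and CLP 5 above. Its log2 fold change of -1.003 ± 0.51 did not pass (SE; edgeR adjusted p = 0.110), but did without CLP 5 (-1.70, 0.000929). miR-486a-3p alone held 0 to 13 counts in CLP and 0 to 14 in sham and was too scarce to test. It was at 0 in CLP 2, 4 and 9 and in sham 6, which allows up to 3 counts, or 0.280 to 0.485 CPM of those libraries' unscaled totals. Divided reads left values that are not whole numbers in 10 of 15 libraries for the joint 3p row, 10 for miR-486b-3p and 3 for miR-486a/b-5p, so the split between miR-486a and miR-486b is uncertain.

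**Figure D2:**
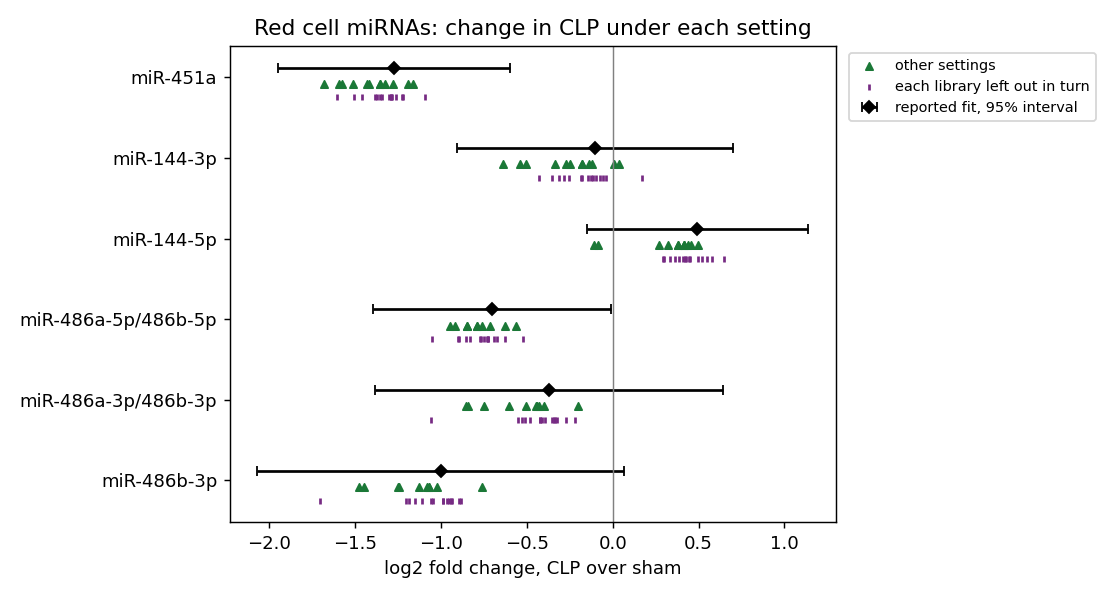
Log2 fold change of CLP over sham for 6 rows: black diamonds with 95% intervals are the reported edgeR fit, green triangles other settings and purple ticks fits with each library left out in turn. All points of miR-451a lie below 0, and those of miR-144-3p fall on both sides of it.

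**Figure D3:**
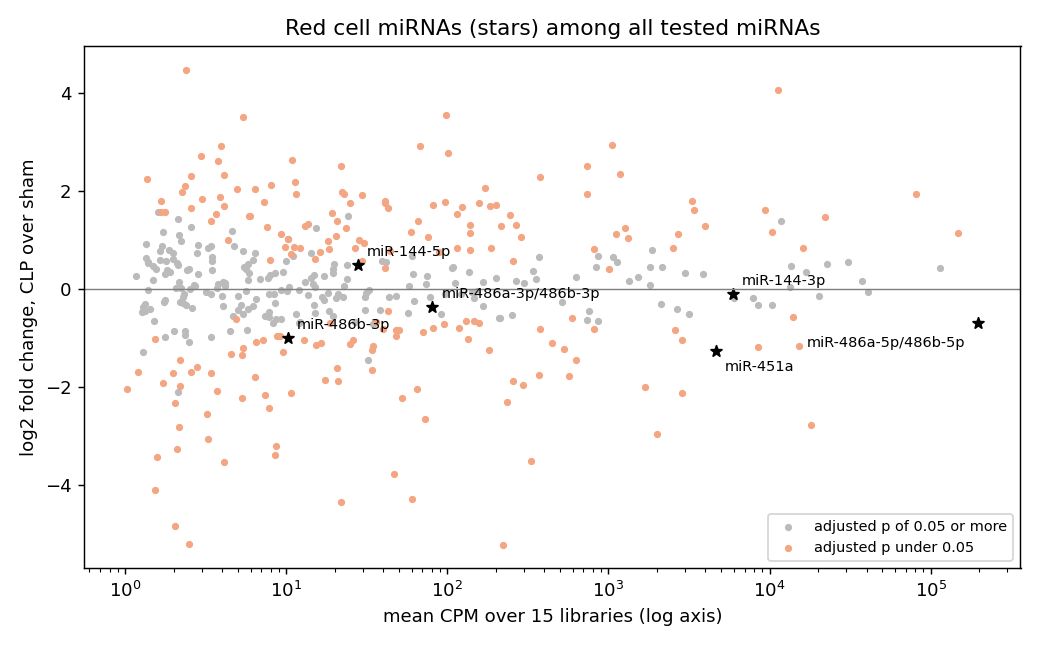
Log2 fold change of CLP over sham against mean CPM over 15 libraries (log axis) for all 426 tested miRNAs, with the 6 red cell rows as stars. Orange points passed at an adjusted p under 0.05; of the stars only miR-451a, at -1.28, passed.

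Ratios within a library do not depend on its depth or scaling, and 5 were compared. The ratio of miR-451a to miR-144-3p separated the groups completely. It was 0.385, 0.528, 0.726, 0.496, 0.520, 0.510, 0.535, 0.833 and 0.406 in CLP 1 to 9, against 1.46, 0.998, 0.926, 0.962, 1.56 and 1.62 in sham 1 to 6. All 9 CLP libraries, CLP 5 included, were below all 6 sham libraries. How often ratios of other miRNA pairs separate the groups was not tested, while 19.7% of single miRNAs had ranges that did not overlap. The separation was not particular to miR-144-3p. Over miR-16-5p the difference for miR-451a was -1.40, at the same smallest exact permutation p of 0.0002. The mean log2 ratio was -0.91 ± 0.35 in CLP (SD, n = 9) and 0.29 ± 0.38 in sham (n = 6), a difference of -1.19, so that the ratio in CLP was 0.438 times that in sham (exact two-sided permutation p = 0.0002, the smallest that 5005 splits can give; adjusted over the 5 ratios 0.000999).

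The difference in that ratio lay between -1.27 and -1.11 when any 1 library was left out. The mature sequences differ in GC content, 36.4% for miR-451a and 30.0% for miR-144-3p, and in length, 22 and 20 bases. With the GC trend between libraries removed, a setting added after the data were seen, the difference was -1.04 (exact permutation p = 0.0002).

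miR-486a/b-5p stood higher against miR-451a in CLP, at 32.5 to 75.0 reads per read of miR-451a, than in sham, at 31.7 to 45.3. The ratio was above every sham library in 7 of 9 CLP libraries, the exceptions being CLP 1 at 32.5 and CLP 9 at 43.2. The mean log2 ratio was 5.71 ± 0.36 in CLP (SD, n = 9) and 5.18 ± 0.19 in sham (n = 6), a difference of 0.53 (exact two-sided permutation p = 0.00699, adjusted 0.0175).

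Against miR-144-3p, miR-486a/b-5p was at 12.5 to 54.4 reads per read in CLP and 35.9 to 55.9 in sham. The mean log2 ratio was 4.80 ± 0.66 in CLP (SD, n = 9) and 5.46 ± 0.26 in sham (n = 6), with 6 of 9 CLP libraries below every sham library. The difference of -0.66 did not pass (exact two-sided permutation p = 0.0338, adjusted 0.0563). It did without CLP 3 (-0.78, adjusted 0.0178) or CLP 8 (-0.75, adjusted 0.0278), the 2 libraries with the highest CLP ratio.

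The arms of each hairpin were also set against each other. There were 0.221 to 1.60 reads of miR-144-5p per 100 reads of miR-144-3p in CLP and 0.290 to 0.521 in sham. CLP 4, 9, 3, 8 and 7 were above every sham library and CLP 5 below them all, and the SD of the log2 ratio was 0.88 in CLP and 0.32 in sham. The difference of 0.56 in mean log2 ratio did not pass (exact two-sided permutation p = 0.164, adjusted 0.205). The 3p reads of miR-486, all 3 rows added, came to 0.0230 to 0.0823 per 100 of the 5p arm in CLP and 0.0354 to 0.0524 in sham, a difference of -0.11 in mean log2 ratio (exact two-sided permutation p = 0.674, adjusted 0.674). The highest of these ratios was in CLP 5 and the lowest in CLP 1.

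**Figure D4:**
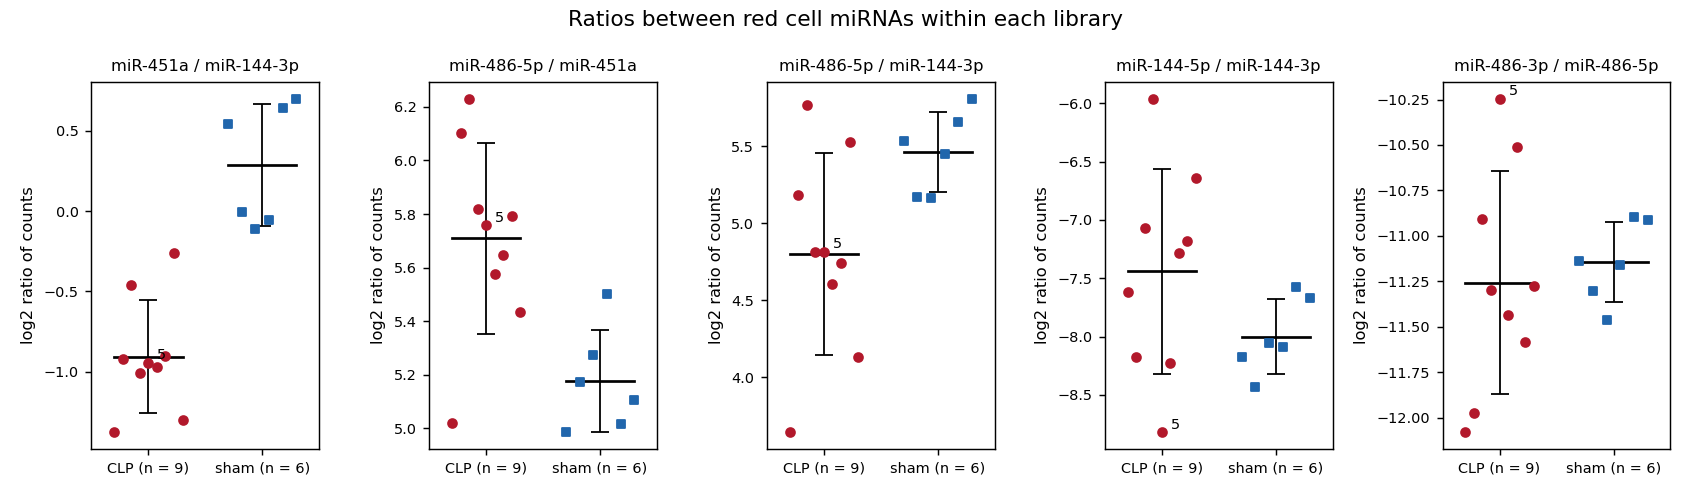
Log2 ratio of counts for the 5 pairs, 1 point per library, in CLP (red circles, n = 9) and sham (blue squares, n = 6), with the mean (line) and 1 SD (bar); CLP 5 is marked. The ratio of miR-451a to miR-144-3p is the only one in which the groups do not overlap.

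Set against miR-23a-3p, the denominator of the haemolysis ratio, no member gave a difference past the threshold with all libraries in. The miR-23a-3p level itself was 7692 ± 3137 CPM in CLP (SD, n = 9) and 9689 ± 4824 CPM in sham (n = 6; log2 fold change -0.33 ± 0.30, SE; edgeR adjusted p = 0.382). The log2 ratio of miR-144-3p to miR-23a-3p was -0.51 ± 1.07 in CLP and -0.73 ± 0.52 in sham (SD, n = 9 and 6; difference 0.22, exact two-sided permutation p = 0.664, adjusted over 3 ratios 0.664). Without CLP 5 that difference was -0.050. For miR-486a/b-5p it was 4.30 ± 0.98 in CLP and 4.73 ± 0.53 in sham (difference -0.44, exact p = 0.340, adjusted 0.510). For miR-451a it was -1.41 ± 0.99 in CLP and -0.44 ± 0.67 in sham (difference -0.97, exact p = 0.0585, adjusted 0.176), and without CLP 5 the difference passed at -1.24 (exact p = 0.00633, adjusted 0.0190).

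The denominator mattered as well. With miR-16-5p, itself abundant in red cells, in place of miR-23a-3p, the difference was -1.40 for miR-451a (exact permutation p = 0.0002, adjusted 0.000599) and -0.87 for miR-486a/b-5p (exact p = 0.00759, adjusted 0.0114). For miR-144-3p it was then -0.21 (exact p = 0.361, adjusted 0.361).

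Within the CLP group, miR-451a varied with miR-144-3p and with miR-486a/b-5p, while miR-144-3p with miR-486a/b-5p did not pass. Across the 9 CLP libraries, log2 CPM of miR-451a and miR-144-3p had a Pearson r of 0.89 (exact permutation p = 0.00118, adjusted over 6 relations 0.00709) and a Spearman rho of 0.90 (exact p = 0.00203, adjusted 0.0122). Without the 2 libraries farthest from the median of miR-451a, r was 0.78 and no longer passed (exact permutation p = 0.0373, adjusted 0.224). For miR-451a and miR-486a/b-5p, r was 0.86 (exact permutation p = 0.00362, adjusted 0.0108) and rho 0.77 (exact p = 0.0214, adjusted 0.0428). Without those 2 libraries this r dropped to 0.50 and did not pass (exact permutation p = 0.250, adjusted 0.321). The tests without them had only 7 CLP libraries, and their adjustment over 6 relations took in sham sets of 4. They therefore cannot say how far either call rests on the 2 libraries. For miR-144-3p and miR-486a/b-5p, r was 0.61 (exact permutation p = 0.0844, adjusted 0.0844) and rho 0.45 (exact p = 0.230, adjusted 0.230). No r is given for sham, whose 3 high and 3 low libraries form separate clusters too small for one each; the 3 sham relations are counted among the 6. Shared depth and scaling enter all of these values.

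**Figure D5:**
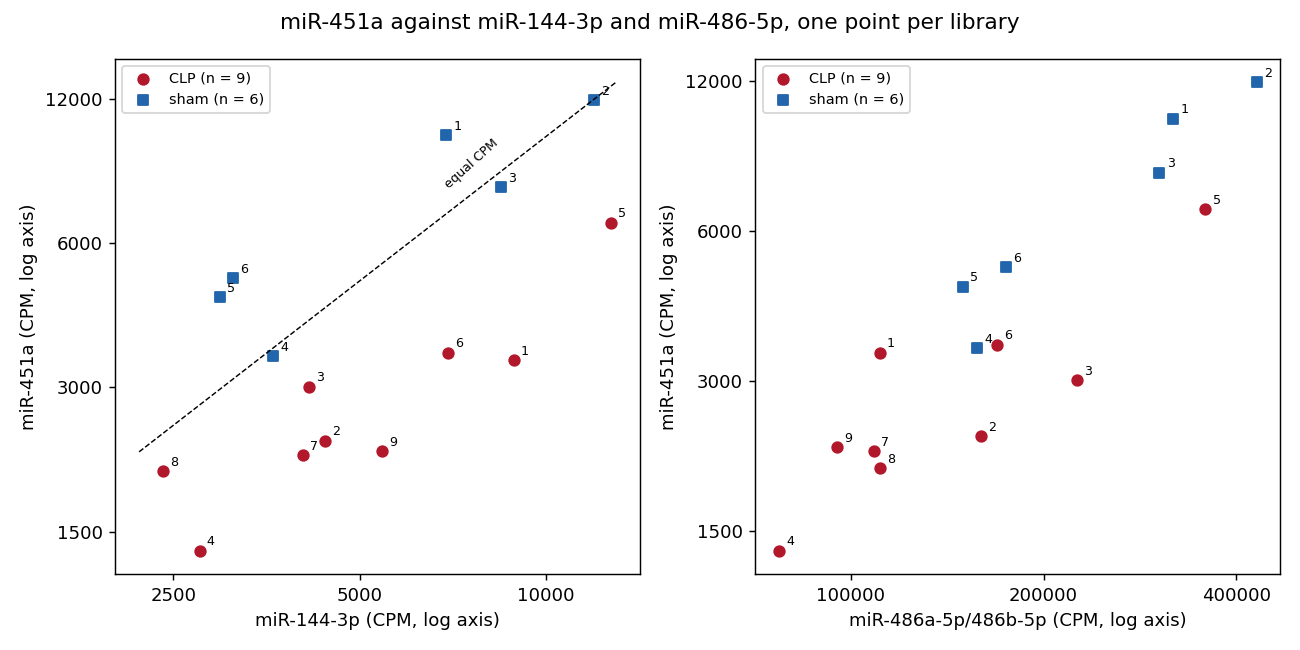
CPM of miR-451a against miR-144-3p (left, the dashed line marks equal CPM) and against miR-486a/b-5p (right), on log axes, with 1 numbered point per library in CLP (red circles, n = 9) and sham (blue squares, n = 6). On the left every CLP point lies below the line and farther from it than sham 2, 3 and 4, which lie just below it.

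To find miRNAs that varied like the members, log2 CPM was centred on the mean of each group and correlated over the 15 libraries with 243 other miRNAs of at least 10 mean CPM. For miR-451a the 5 highest values were those of miR-186-5p (r = 0.87), miR-106b-3p (0.84), miR-16-5p (0.81), miR-16-1-3p (0.80) and miR-3074-5p (0.79). For miR-144-3p they were those of miR-106b-3p (0.95), miR-16-5p (0.95), miR-186-5p (0.91), miR-93-5p (0.87) and let-7i-5p (0.84). For miR-486a/b-5p they were lower, those of miR-3074-5p (0.80), miR-186-5p (0.79), miR-421-3p (0.74), let-7d-5p (0.74) and miR-374b/c-5p (0.73). Among the members themselves the same measure was 0.90 for miR-451a with miR-486a/b-5p, 0.89 for miR-451a with miR-144-3p and 0.52 for the arms of miR-144. These values are descriptions, and CLP 5 and the high and low sham libraries weigh on them.

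Of a list of 10 other miRNAs abundant in red cells, 4 rose, 1 fell and 5 did not pass by edgeR's test, with a median log2 fold change of 0.50 against 0.11 over all tested, where 25.4% passed as higher and 21.8% as lower. miR-25-3p, from the miR-106b cluster, rose to 13333 ± 3800 CPM in CLP, against 5934 ± 2725 CPM in sham (SD, n = 9 and 6; log2 fold change 1.17 ± 0.27, SE; edgeR adjusted p = 0.00146). miR-15b-5p (1.17 ± 0.22), miR-15a-5p (0.98 ± 0.30) and the scarce miR-20b-5p (2.24 ± 0.62) also rose (edgeR adjusted p = 0.000247, 0.0116 and 0.00596). miR-484 fell (log2 fold change -1.22 ± 0.23, SE; edgeR adjusted p = 0.00035), to 347 ± 122 CPM in CLP, against 809 ± 151 CPM in sham. miR-92a-3p (-0.30 ± 0.22, edgeR adjusted p = 0.254) and miR-16-5p (0.09 ± 0.23, edgeR adjusted p = 0.778), the next most abundant, did not pass.

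Markers of other blood and tissue sources are given beside the fall of miR-451a, in a table of which 25.4% rose and 21.8% fell. The summed level of the myeloid miRNAs, miR-223 and miR-142a with both arms, was 1824 to 4182 CPM in CLP and 1479 to 2143 CPM in sham, and 1 of 4 rose. Both lymphocyte arms of miR-150 fell, and their sum was 106 to 661 CPM in CLP and 305 to 741 CPM in sham. For miR-126a, of platelets and endothelium, the sum was 1791 to 4663 CPM in CLP and 2852 to 4835 CPM in sham, and its arms had edgeR adjusted p of 0.129 and 0.0639. For the hepatocyte miR-122 the sum was 1873 to 79221 CPM in CLP and 2959 to 14622 CPM in sham, with adjusted p of 0.139 and 0.823. All markers were detected, and their part in the changes of the red cell miRNAs was not tested.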

How the data were processed

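Small RNA was extracted from platelet-free plasma and made into libraries by adapter ligation, PCR and gel excision, per the labels' protocols. The authors deposited expected counts per miRNA, estimated counts not scaled for depth, in 1 table of 15 libraries that its name ties to the exceRpt pipeline. The submitters' processing notes name mm10 as the build. The sources used here do not give the aligner, the trimming or the miRNA release. Counts were rounded, filtered by filterByExpr, scaled by TMM and tested with edgeR 4.0.16 (R 4.3.3; robust quasi-likelihood F test, two-sided, Benjamini-Hochberg over 426 miRNAs, threshold 0.05). The SE is the log2 fold change over the square root of F. Ratios used a pseudocount of 0.5 and correlations log2 CPM with a prior count of 2, both with exact permutation tests (SciPy 1.17.1). Hairpins were folded with RNAfold 2.7.2.

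The members, lists and tests were chosen with earlier results of these data known. The text names the members and denominators, and the 5 miRNAs most like miR-451a, miR-144-3p and miR-486a/b-5p. Of the 10 other red cell miRNAs it names those past the threshold or among the 3 most abundant. Names from the marker lists followed no such rule, and miR-101a-3p was named by its sequence. The fit was tested on simulated counts. Alternatives were DESeq2 1.42.0, limma 3.58.1 voom, other scalings and filters, a replicate block, removal of a GC trend (373 of 426 tested miRNAs had a sequence), and leaving out libraries. After seeing the data, removal of the GC trend from ratios and a fit of the 12 libraries numbered 1 to 6 without pairs were added. No library was a copy of another: between libraries of a group, chi-square per degree of freedom was at least 373 in CLP and 235 in sham.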

Additional observations from a re-analysis of the deposited data

Results flagged for a closer look

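CLP 5 stood far from the other CLP libraries in 4 rows. Its miR-451a level was 6615 CPM, where the next CLP library had 3542. It held 266 CPM in the joint miR-486a/b-3p row, where the next had 105, and 27.1 CPM of miR-486b-3p, where the next had 12.04. For miR-486a-3p, at 13 counts, it was at 1.15 CPM and the next at 0.400. In all, 30 sets of values of 1 group were examined by the gap to the nearest value over the range. Chance alone marks about 5% of sets only where the values are normally distributed. These 4 gaps were taken on CPM without logs, a scale that widens gaps between high values. The 4 of 30 therefore cannot be read against that 5%. The sets share libraries, so these 4 are not independent of each other. Without CLP 5 the log2 fold changes were -1.61 for miR-451a, -1.06 for the joint 3p row and -1.70 for miR-486b-3p.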

How the results depend on the processing

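Of 115 values computed under settings other than leaving out 1 library, 90 were counted as unchanged. For a tested value this means that it kept its direction and its side of the threshold. Every value of miR-451a did so and, except under the replicate block, every value of its ratio to miR-144-3p. The 115 include numbers of miRNAs called, which have neither direction nor threshold. All of these except the number with no filter are among the 90. The number of miRNAs called was 201, or 307 with no filter on low counts, which tests more miRNAs. It was 141 with a stricter filter, 174 with the GC trend removed and 136 with that removal and the replicate block, settings that test fewer miRNAs. On leaving out 1 library it lay between 184 and 213. For miR-486a/b-5p the change passed with library size scaling (-0.95), limma voom (-0.85), no filter (-0.72) and without CLP 1 and CLP 5 (-0.92). For the joint miR-486a/b-3p row it passed with limma voom (-0.85) and without CLP 1 and CLP 5 (-0.84), and for miR-486b-3p with library size scaling (-1.24), limma voom (-1.45) and without CLP 1 and CLP 5 (-1.48). The sign of miR-144-3p turned with the replicate block (0.038) and with the 12 libraries numbered 1 to 6 unpaired (0.0097), and that of miR-144-5p with the GC trend removed (-0.11) or removed together with the replicate block (-0.084). None of these 4 passed. miR-486 had no sequence in the table used for the GC trend and so no value there. The ratio of miR-451a to miR-23a-3p passed without CLP 1 and CLP 5 (-1.27), with the GC trend removed (-1.27) and over miR-16-5p (-1.40), and that of miR-486a/b-5p over miR-16-5p (-0.87). That of miR-144-3p turned to -0.15, -0.24 and -0.21 under these 3 settings. The causes were not tested.

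The replicate numbers showed no sign of pairing the libraries. Deviations of same-numbered libraries correlated between -0.15 and -0.03, and 0 of 6 numbers matched best with their own. These values cannot show how the libraries were handled. With the number as a block the paired differences were -1.23 for miR-451a over miR-144-3p and 0.57 for miR-486a/b-5p over miR-451a. Each had an exact sign-flip p of 0.0313, the smallest that 64 flips can give, and after adjustment over the 5 ratios (0.0781) neither passed. The block called 152 miRNAs. Without the 2 libraries farthest from the median, the correlations in CLP were 0.78 for miR-451a with miR-144-3p and 0.50 with miR-486a/b-5p, neither past the threshold after adjustment.

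On leaving out 1 library, the change lay between -1.61 and -1.09 for miR-451a, -0.43 and 0.17 for miR-144-3p, 0.29 and 0.65 for miR-144-5p, -1.05 and -0.52 for miR-486a/b-5p, -1.06 and -0.22 for the joint 3p row and -1.70 and -0.88 for miR-486b-3p. The ratio difference lay between -1.27 and -1.11 for miR-451a over miR-144-3p, 0.47 and 0.62 for miR-486a/b-5p over miR-451a, -0.78 and -0.51 for miR-486a/b-5p over miR-144-3p, 0.37 and 0.73 for miR-144-5p over miR-144-3p and -0.24 and -0.01 for the arms of miR-486. Over miR-23a-3p it lay between -1.24 and -0.83 for miR-451a, -0.050 (without CLP 5) and 0.39 for miR-144-3p and -0.71 and -0.33 for miR-486a/b-5p.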

Other observations

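The row of the Mir451b hairpin, which lies on the strand opposite to Mir451a, held 14 counts in sham 6 and 0 in each other library. The row of the miR-486b hairpin held at most 3 counts in any library, in sham 3. Whether the counting used strand was not given in the sources used here.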
